A study of Rattus norvegicus with 61 samples.

Results

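The comparison described here is between striatal punches of male Sprague-Dawley rats that carried a low-loading implant of 4-OH-PCB52 and punches of rats with a sham implant, restricted to punches with abundant Ppp1r1b messenger RNA. A library entered when Ppp1r1b reached 500 CPM or more, CPM being counts scaled to a common library total, here the raw one. This kept 12 of the 14 low and sham striatal libraries, out of 30 striatal libraries and 61 libraries in the series. The low group held rats 7, 22, 37, 51 and 53 (n = 5), and the sham group held rats 1, 3, 18, 32, 34, 48 and 49 (n = 7). Low implants contained 1% 4-OH-PCB52 and sham implants 0%. All rats arrived at 21 days of age, received a subcutaneous polymer implant on postnatal day 28 and carried it for 28 days. The study had 60 rats, 15 per exposure group, in 4 cohorts 3 weeks apart, and its other striatal groups carried 5% (medium, 8 libraries used) or 10% (high, 7 libraries used). A group is therefore defined by what its implant contained, and the dose that reached the brain is not analysed here. Each library came from a rat with its own number, so p-values rest on the spread between rats and their punches. In the main fit that spread was estimated jointly from 27 striatal libraries of all 4 groups, not from the 12 libraries alone.

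4-OH-PCB52 is a hydroxylated metabolite of PCB52, a lightly chlorinated member of the polychlorinated biphenyls. Related compounds are known to bind thyroid hormone carriers and to act on ryanodine receptors, the calcium release channels of internal stores. The striatum is the input station of the basal ganglia. Most of its neurons are GABAergic projection neurons that respond to dopamine, and Ppp1r1b encodes DARPP-32, the phosphatase inhibitor that defines them. A punch also takes astrocytes, oligodendrocytes, microglia and vessels, and at its edges cortex, septum, globus pallidus, thalamus or the choroid plexus of the ventricle. Because bulk RNA was measured, fewer cells of a type and less RNA per cell cannot be told apart in any value below.

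The values that chose the libraries were these. Ppp1r1b stood at 3228, 2945, 3126, 3423 and 3826 CPM of the raw total in low 7, 22, 37, 51 and 53, and between 2827 and 4134 CPM in the 7 sham libraries. The 2 libraries left out, low 20 and sham 17, had 218 and 212 CPM, far below the threshold. The lowest library kept was sham 34 at 2827 CPM, so none of the 12 lay near the threshold. The other projection neuron markers followed the label in the kept libraries. After scaling, Drd1, the dopamine receptor of the direct pathway, averaged 305 ± 58.6 CPM in low and 354 ± 82.3 CPM in sham libraries (SD, n = 5 and 7), while the left-out low 20 and sham 17, scaled together with all striatal libraries, had 23.4 and 8.36 CPM. Drd2, the dopamine receptor of the indirect pathway, averaged 317 ± 45.7 CPM in low and 315 ± 38.9 CPM in sham libraries, against 13.3 CPM in low 20 and 8.56 CPM in sham 17.

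**Figure D1:**
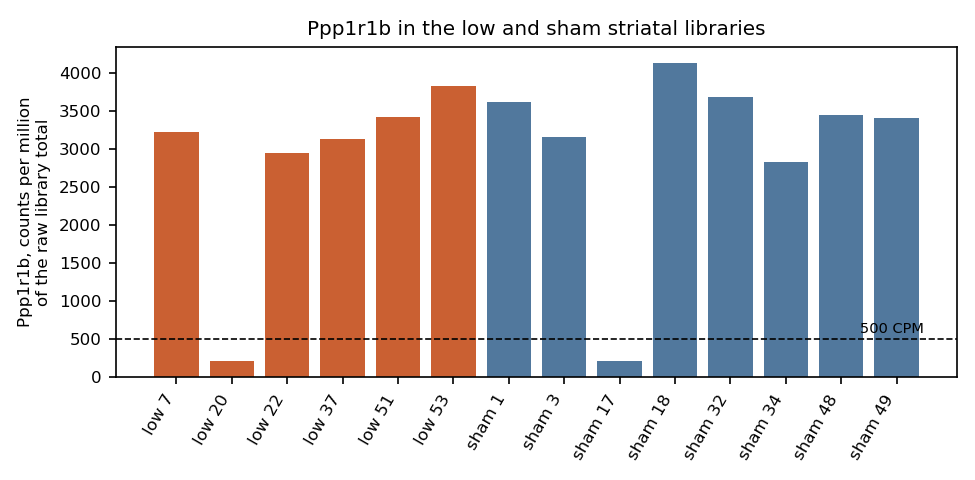
Ppp1r1b in CPM of the raw library total (vertical axis) in each of the 6 low and 8 sham striatal libraries, with the threshold of 500 CPM as a dashed line. Low 20 (218 CPM) and sham 17 (212 CPM) fall below it, and the other 12 libraries lie between 2827 and 4134 CPM.

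The 12 libraries held 5851797 to 9106267 counts in the low group and 6181764 to 10236306 in the sham group, and no pair of libraries had identical counts. Before any result, 2 sham libraries that differed from the other 10 need to be described. On the first principal component, which took 42.14% of the variance of the 12 libraries, sham 48 and sham 49 lay at 58.9 and 60.5, while the other 10 lay between -24.2 and -0.4. Both had the highest means of the 12 libraries over ribosomal protein genes (8.68 and 9.15 log2 CPM) and respiratory chain genes (7.78 and 7.92). They were also highest over proteasome genes (6.99 and 7.08) and lowest over glutamate receptors. In tissue markers the 2 differed. Sham 48 carried the highest levels of thalamic and choroid plexus markers and sham 49 the highest of cortical ones, as given below. What set the 2 libraries apart was not tested. The rats with neighbouring numbers, low 51 and low 53, did not stand apart. A wide spread was not particular to sham. The mean over ribosomal protein genes was 8.20 ± 0.51 log2 CPM in sham, 8.30 ± 0.56 in medium and 8.33 ± 0.73 in high libraries (SD). Only the low group was narrow, at 8.05 ± 0.17. For respiratory chain genes the SD was 0.37, 0.47, 0.57 and 0.13 in sham, medium, high and low. Single medium and high libraries are not compared with sham 48 and 49 here. Many group results are therefore given with and without sham 48 and 49, a choice made after seeing the data. Where a single setting is given, it includes both libraries.

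No gene separated the low from the sham libraries at the threshold used. In edgeR's quasi-likelihood test, fitted to 27 striatal libraries in 4 groups, 0 of 12243 genes (0%) passed a Benjamini-Hochberg adjusted p of 0.05, and the smallest adjusted p was 0.864. At an unadjusted p under 0.05, 313 genes (2.56%) stood higher and 268 (2.19%) lower in low libraries, 4.75% of genes in all. The median log2 fold change, low over sham, was -0.00 over all genes, with 49.6% of genes above 0 and 50.4% below. Genes whose low libraries all lay above every sham library numbered 32 (0.261%), and those all below numbered 33 (0.27%). Leaving out single libraries moved the 313 to between 189 (without low 37) and 519 (without sham 34), the 268 to between 152 (without sham 48) and 386 (without sham 34), and the non-overlapping counts up to 176 and 106 (both without sham 34). Limma with voom quality weights also called 0 genes, at a smallest adjusted p of 0.0889. DESeq2 called 1 gene, Lrfn5, with an adjusted p of 0.0465.

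Lrfn5 had the smallest p in edgeR. It encodes SALM5, a leucine-rich repeat adhesion molecule of the postsynaptic membrane that binds presynaptic receptor phosphatases. Low 7, 22, 37, 51 and 53 had 27.2, 27.7, 24.8, 27.4 and 23.4 CPM of Lrfn5, against a lowest of 32.5, a median of 35.1 and a highest of 41.5 CPM in sham libraries. Every low library lay below every sham library. The log2 fold change was -0.48 ± 0.10 (SE), with an unadjusted p of 7.27e-05 and an adjusted p of 0.864 in edgeR's quasi-likelihood test. Leaving out sham 48 and 49 gave a log2 fold change of -0.44.

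Rhbdf1 led the genes that stood higher. It encodes iRhom1, a rhomboid-like protein without protease activity that helps the sheddase ADAM17 mature. Its levels in low 7, 22, 37, 51 and 53 were 18.3, 21.5, 24.8, 19.7 and 21.7 CPM, against a lowest of 10.8, a median of 15.2 and a highest of 16.6 CPM in sham libraries. The lowest low library thus exceeded the highest sham library, and the log2 fold change was 0.53 ± 0.13 (SE), with an unadjusted p of 3.45e-04 in edgeR. Elf2, an ETS family transcription factor, had 39.4, 35.3, 36.1, 40.2 and 36.3 CPM in the low libraries, against 24.2, 27.8 and 32.5 CPM as the lowest, median and highest of the sham libraries. Its groups did not overlap either, at a log2 fold change of 0.40 ± 0.10.

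Gjb2, connexin 26 of gap junctions, combined a larger difference with a small overlap. It had 9.16, 7.76, 10.9, 7.84 and 6.54 CPM in low 7, 22, 37, 51 and 53, against 3.35, 5.34 and 6.73 CPM as the lowest, median and highest sham library. Only low 53 lay below the highest sham library, which was sham 48. The log2 fold change of Gjb2 was 0.68 ± 0.17 (SE), with an unadjusted p of 4.38e-04 in edgeR.

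The other 12 of the 16 leading genes, 8 per direction by smallest p, divided in the same way. Above sham and without overlap were Olfml1, a secreted olfactomedin-domain protein, at 64.96 ± 4.41 CPM in low and 48.7 ± 6.26 CPM in sham libraries, and Tfap4, a helix-loop-helix transcription factor, at 9.40 ± 1.09 and 6.26 ± 0.889 CPM in low and sham. Vav1, a signalling protein known from blood cells, also had no overlap, at 5.74 ± 0.994 CPM in low and 3.59 ± 0.309 CPM in sham libraries. Ccdc80, a secreted matrix protein, and Aoc3, an amine oxidase of vessel walls, stood above sham with overlap, at log2 fold changes of 0.58 ± 0.16 and 1.21 ± 0.33. The levels of Aoc3 were low, at 2.835 ± 0.764 CPM in low and 1.197 ± 0.386 CPM in sham libraries. None of these 5 genes passed the adjusted threshold.

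Below sham and without overlap stood Dync1i1, an intermediate chain of the dynein motor used in axonal transport. It averaged 88.3 ± 10.97 CPM in low and 117 ± 17.6 CPM in sham libraries. Snx10, a sorting nexin of endosomes, averaged 74.2 ± 5.47 CPM in low and 94.4 ± 8.83 CPM in sham libraries. Ppcs, an enzyme of coenzyme A synthesis, averaged 7.81 ± 1.01 CPM in low and 13.3 ± 4.08 CPM in sham libraries, where sham 48 and sham 49 held the top values of 20.0 and 18.2 CPM. Its log2 fold change of -0.77 ± 0.22 became -0.49 without those libraries. Cxadrl1 and the G-protein-coupled receptor gene Gpr83 lay below sham with overlap, at log2 fold changes of -1.63 ± 0.45 and -0.50 ± 0.15.

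The size of the remaining pair of differences rested on sham 48. Ntng1, netrin-G1 of thalamocortical axons, had 8.52, 8.93, 6.34, 5.84 and 7.24 CPM in the low libraries, against a lowest of 7.51 and a median of 10.5 CPM in the sham group, 21.7 CPM in sham 34 and 92.0 CPM in sham 48. Prkcd, a protein kinase C that is strongly expressed in thalamus, averaged 32.3 ± 3.47 CPM in low libraries, against a sham median of 41.5 CPM, 78.3 CPM in sham 34 and 327 CPM in sham 48. Without sham 48 the log2 fold changes were -0.66 for Ntng1 and -0.47 for Prkcd, against -1.64 and -1.40 with it, and both stayed at an unadjusted p under 0.05.

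**Figure D2:**
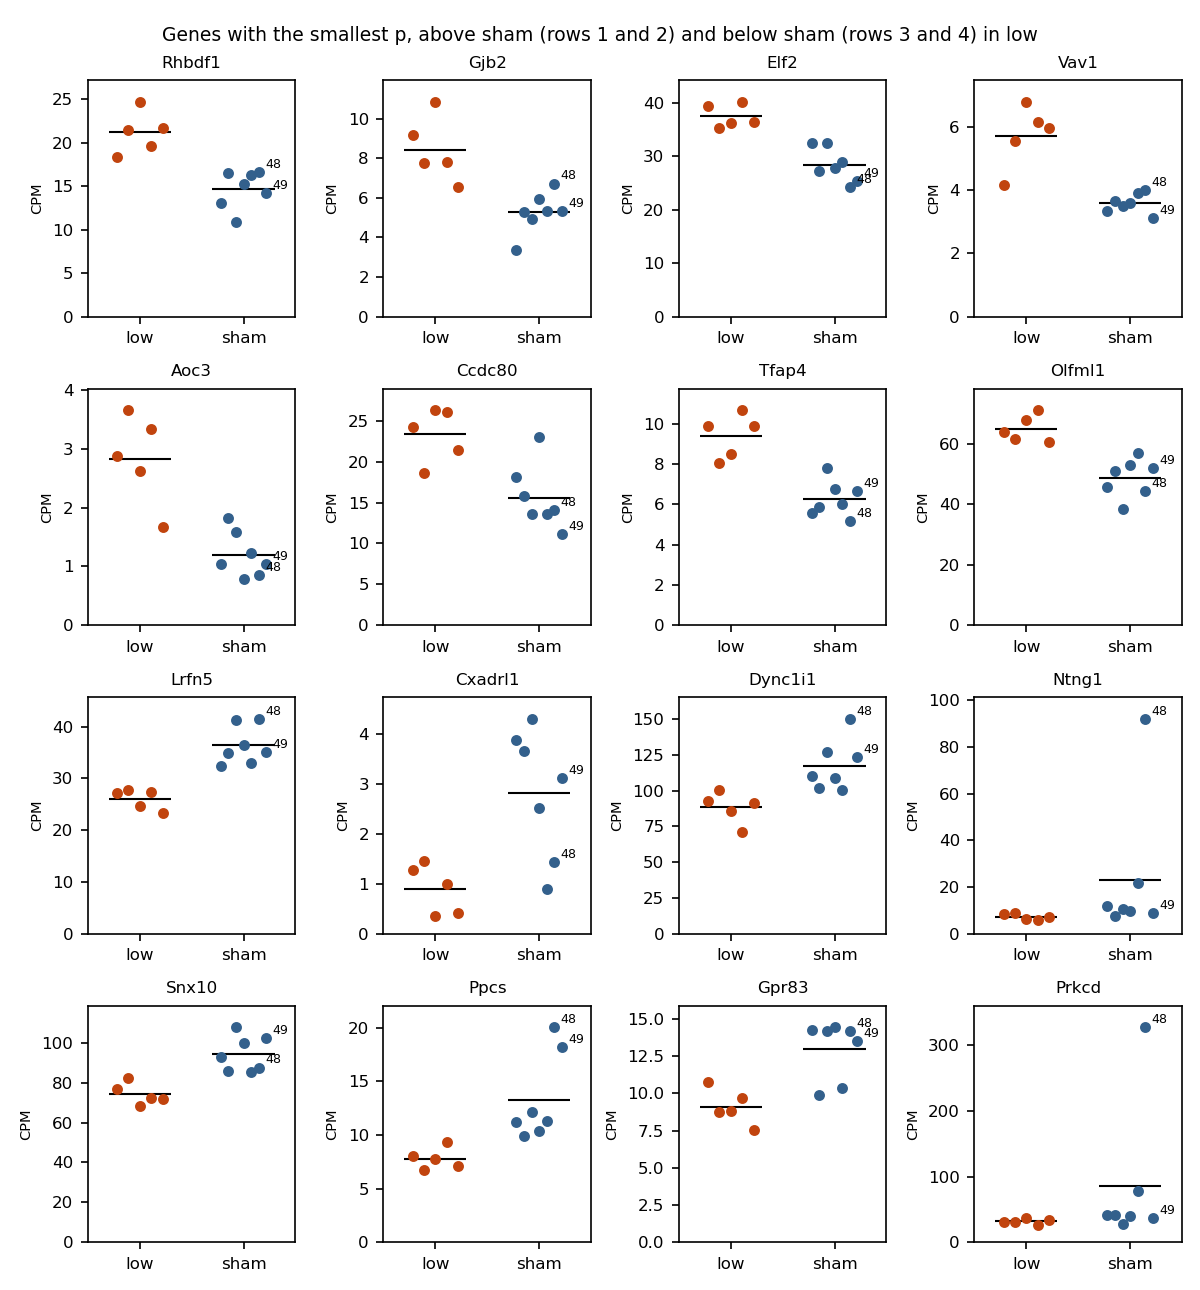
Levels in CPM (vertical axes, from 0) of the 16 leading genes in the 5 low and 7 sham libraries, 1 point per library with the group mean as a line and sham 48 and 49 marked. In 9 of the 16 panels the groups do not overlap, and in the Ntng1 and Prkcd panels sham 48 lies far above all other libraries.

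By size of fold change among non-overlapping genes with a mean of 10 CPM or more, other genes came forward. Scarb2, a lysosomal membrane receptor, averaged 180 ± 22.8 CPM in low and 127 ± 26.1 CPM in sham libraries. It was lowest in sham 18, 48 and 49, at 93.8, 102 and 103 CPM. Its log2 fold change of 0.51 ± 0.24 became 0.40 without sham 48 and 49, and 0.29 without sham 18 as well. Tgfbr1, a receptor kinase for transforming growth factor beta, averaged 84.5 ± 7.10 CPM in low and 58.2 ± 16.3 CPM in sham libraries. Akap13, an anchoring protein for protein kinase A, averaged 50.6 ± 3.92 CPM in low and 32.2 ± 12.8 CPM in sham libraries. The sham libraries with the least Tgfbr1 and Akap13 were sham 48 at 36.1 CPM and sham 49 at 15.1 CPM. With those 2 libraries left out, their log2 fold changes were 0.34 and 0.39, against 0.54 ± 0.26 and 0.65 ± 0.34 with them. Gna13 had 28.9 to 32.7 CPM in low and 11.2 to 28.3 CPM in sham libraries, lowest in sham 18, at a log2 fold change of 0.49 ± 0.29. On the lower side were Tceal5, at 68.5 ± 4.58 CPM in low and 93.8 ± 12.1 CPM in sham libraries, and Gtf2f2, a subunit of the general transcription factor TFIIF, at 12.2 ± 0.983 CPM in low and 16.5 ± 2.91 CPM in sham libraries.

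The promoters of Lrfn5 and Gjb2 are shown because these genes had the smallest p in each direction among those with a promoter in the RefSeq table used. They were read from RefSeq annotation of the GRCr8 build, on the strand of each gene, and span the gene's start. Lrfn5 lies at chr6:85202776-85203075 on the plus strand and Gjb2 at chr15:35381904-35382203 on the minus strand. Capitals mark matches to GCGTG, the core of the element bound by the aryl hydrocarbon receptor, or to GGGCGG, the GC box, which reads CCGCCC when it lies on the other strand.
Lrfn5: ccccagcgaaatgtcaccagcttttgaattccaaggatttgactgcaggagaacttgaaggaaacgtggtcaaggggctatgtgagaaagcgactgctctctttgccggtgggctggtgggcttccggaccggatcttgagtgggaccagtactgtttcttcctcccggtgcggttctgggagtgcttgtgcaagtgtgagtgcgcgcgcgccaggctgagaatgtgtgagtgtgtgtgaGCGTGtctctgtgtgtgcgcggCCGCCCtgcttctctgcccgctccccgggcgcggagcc
Gjb2: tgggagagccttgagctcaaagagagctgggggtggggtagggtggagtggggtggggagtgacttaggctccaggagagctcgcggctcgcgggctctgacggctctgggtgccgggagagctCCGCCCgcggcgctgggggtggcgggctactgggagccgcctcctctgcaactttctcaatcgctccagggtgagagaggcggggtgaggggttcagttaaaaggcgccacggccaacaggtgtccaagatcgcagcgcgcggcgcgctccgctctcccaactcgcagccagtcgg
The Lrfn5 window held 1 GCGTG that begins at -10 relative to the gene's start and 1 GC box on the other strand at 12. The Gjb2 window held 1 GC box on the other strand at -126. The E-box CACGTG and the TATA box TATAAA, searched on both strands like the others, had no match in either window. Over all 33469 rat promoters in the table, 29.7% held GCGTG, 33.1% the GC box, 6.42% the E-box and 14.2% the TATA box, so these matches are common letters and are given as a description. No promoter of Rhbdf1 was in the table.

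The same leading genes in the other groups can be read side by side, with the reminder that all 3 exposed groups were set against the same sham libraries. The log2 fold change of Lrfn5 was -0.48 in low, -0.19 in medium and -0.16 in high libraries. For Rhbdf1 it was 0.53 in low, 0.24 in medium and 0.35 in high libraries. For Elf2 it was 0.40, 0.13 and 0.16, for Gjb2 0.68, 0.31 and 0.17, and for Snx10 -0.35, -0.11 and -0.09 in low, medium and high. The departures of these 5 genes from sham were thus largest in the low group, the group by which they had been chosen. Neither medium nor high libraries gave a gene past the adjusted threshold against sham (0% of 12243 genes each, edgeR).

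The cerebellum was sampled in other libraries of the same study, with its own sham group, but largely from the same rats, so the regions are not independent. All cerebellar libraries were used, with no selection by a marker such as that made by Ppp1r1b in the striatum. Of the 15 leading genes tested there, 4 had the sign seen in the striatum, and the smallest unadjusted p was 0.0724, for Gjb2 with the opposite sign at a log2 fold change of -1.18 ± 0.63. For Lrfn5 the cerebellar value was 0.33 ± 0.33, and for Rhbdf1 it was -0.06 ± 0.12, so that neither exceeded its own standard error. In a fit of both regions, which did not account for shared rats, no gene of 12634 passed the adjusted threshold for a difference between regions, and among the leading genes the smallest adjusted p of that difference was 1.00. In the cerebellum itself, 0 of 11946 genes (0%) passed for low against sham in edgeR.

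Genes of glia and vessels stood above sham as groups, by small amounts. Astrocytes, which clear glutamate and potassium, had 19 of 20 tested markers above 0, with a median log2 fold change of 0.35, beside 49.6% of all genes above 0 and a median of -0.00. At an unadjusted p under 0.05, 4 of the 20 stood higher and none lower, beside 2.56% and 2.19% of all genes. Among them were Aldh1l1, a folate enzyme of astrocytes, at 34.4 ± 3.82 CPM in low and 25.9 ± 5.08 CPM in sham libraries, and the astrocyte connexin Gja1, at 639 ± 58.8 CPM in low and 492 ± 89.3 CPM in sham libraries. Sox9, a transcription factor of astrocytes, averaged 40.3 ± 7.72 CPM in low and 28.6 ± 5.59 CPM in sham libraries. Gfap, the intermediate filament that marks reactive astrocytes, averaged 1026 ± 224 CPM in low and 738 ± 241 CPM in sham libraries, with an unadjusted edgeR p of 0.0609.

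Over the whole astrocyte list, the mean log2 CPM was 8.57, 8.74, 8.94, 8.72 and 8.68 in low 7, 22, 37, 51 and 53, against a lowest of 7.83, a median of 8.40 and a highest of 8.66 in sham libraries. Sham 18 was the lowest by a wide margin, and sham 34 alone lay above a low library. With sham 48 and 49 left out, all 20 markers lay above 0, at a median of 0.30. Without sham 18 as well, 19 of 20 did, at a median of 0.18.

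Myelin genes were at similar levels in all low rats. Oligodendrocytes wrap axons in myelin, and all 22 tested markers lay above 0, at a median of 0.34. The list mean was 8.46, 8.41, 8.46, 8.47 and 8.33 log2 CPM in low 7, 22, 37, 51 and 53. The sham libraries ran from 7.45 in sham 3 through a median of 7.98 to 8.55 in sham 34. The low libraries thus lay close together inside the upper end of a wide sham range. Mbp, myelin basic protein, averaged 16280 ± 2499 CPM in low and 11820 ± 3305 CPM in sham libraries. Aspa, the acetylaspartate-cleaving enzyme of oligodendrocytes, averaged 39.2 ± 2.02 CPM in low and 31.3 ± 6.79 CPM in sham libraries.

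Oligodendrocyte precursors, the dividing cells from which myelin-forming cells arise, had 13 of 13 tested markers above 0, at a median of 0.45. Their list mean was 6.19, 6.19, 6.31, 6.26 and 6.02 log2 CPM in low 7, 22, 37, 51 and 53, against a lowest of 5.34, a median of 5.74 and a highest of 6.27 in sham libraries. Apart from sham 34, every sham library lay below every low library. Olig2, the transcription factor of the lineage, averaged 79.4 ± 4.97 CPM in low and 60.4 ± 11.2 CPM in sham libraries. Bcas1, known from early myelinating cells, averaged 517 ± 105 CPM in low and 366 ± 113 CPM in sham libraries. When sham 48 and 49 were left out, the counts were 22 of 22 and 13 of 13 above 0, at medians of 0.29 for oligodendrocytes and 0.32 for their precursors. Without sham 18, 48 and 49 the medians were 0.40 and 0.23.

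Vessels and microglia leaned the same way. Endothelial markers were above 0 for 20 of 21 genes at a median of 0.28, with 3 higher at an unadjusted p under 0.05, beside 2.56% of all genes. Slc2a1, the glucose transporter of the blood-brain barrier, had 193.5, 223, 278, 230 and 237 CPM in low 7, 22, 37, 51 and 53, against 157.5, 185 and 208 CPM as the lowest, median and highest sham library. Low 7 lay inside the sham range and the other low libraries above it. Tie1, an endothelial receptor kinase, averaged 56.6 ± 11.2 CPM in low and 41.8 ± 6.92 CPM in sham libraries. Mural cells, the pericytes and smooth muscle of the vessel wall, had 15 of 16 markers above 0 at a median of 0.43. Their growth factor receptor Pdgfrb averaged 86.7 ± 11.5 CPM in low and 58.9 ± 18.1 CPM in sham libraries, and Rgs5, a regulator of G-protein signalling in pericytes, averaged 88.3 ± 13.3 CPM in low and 60.7 ± 19.1 CPM in sham libraries.

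Microglial markers lay above 0 for 17 of 21 genes at a median of 0.25. Only the transcription factor gene Sall1, 1 of the 21, stood higher at an unadjusted p under 0.05, a share near the 2.56% of all genes. Csf1r, the receptor on which microglia depend for survival, averaged 215 ± 34.6 CPM in low and 160 ± 43.7 CPM in sham libraries. Meningeal and perivascular fibroblasts had 16 of 18 markers above 0 at a median of 0.25. Among them the collagen gene Col1a1 averaged 15.1 ± 2.30 CPM in low and 9.09 ± 4.05 CPM in sham libraries. The log2 fold change of Col1a1 was 0.71, became 0.47 without sham 48 and 49, and 0.30 without sham 18 as well. In the endothelial, mural and microglial lists low 37 was the highest of all 12 libraries, and sham 18 was the lowest in the mural and microglial lists. Without sham 18, 48 and 49 the medians were 0.18 for endothelial cells, 0.21 for mural cells and 0.20 for microglia. No list of glial or vascular markers had a member whose groups did not overlap. Over all tested genes the shares without overlap were only 0.261% higher and 0.27% lower, so lists this short say little by that count.

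Interferon and innate inflammation genes had 24 of 29 tested members above 0 at a median of 0.19. The members with the smallest p were the interleukin-1 receptor Il1r1, at 6.09 ± 1.32 CPM in low and 3.38 ± 1.38 CPM in sham libraries, and the endotoxin receptor Tlr4, at 2.84 ± 0.701 CPM in low and 1.68 ± 0.996 CPM in sham libraries. Sham 18 had the least of both, at 1.44 CPM of Il1r1 and 0.638 CPM of Tlr4. The part of glial and vascular content in these values was not tested.

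**Figure D3:**
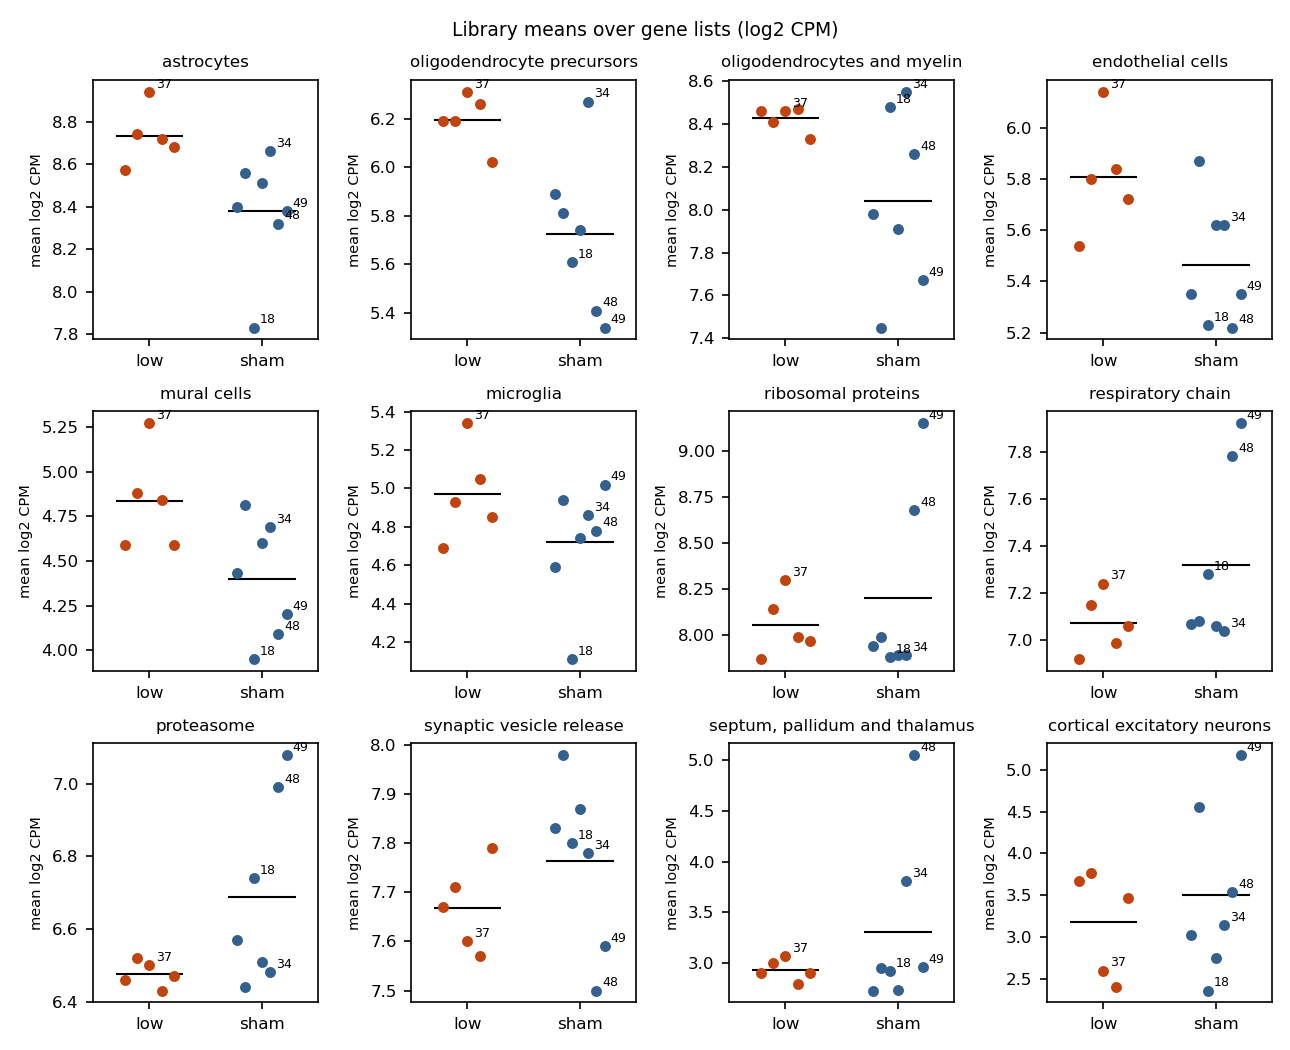
Mean log2 CPM over the tested members of 12 gene lists (vertical axes, which do not start at 0) in the 5 low and 7 sham libraries, 1 point per library, group means as lines, with low 37 and sham 18, 34, 48 and 49 marked. Low libraries lie in the upper part of the glial and vascular panels, while sham 48 and 49 alone are high in the ribosomal and respiratory chain panels.

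Neuronal genes showed smaller differences. Of the 27 projection neuron markers, 9 lay above 0 and 18 below, at a median of -0.08, and their list mean was 8.78 ± 0.17 log2 CPM in low and 8.82 ± 0.26 in sham libraries. Since these libraries had been chosen by a marker of the same cells, this is a description. Pdyn, the opioid precursor of direct pathway neurons, averaged 195 ± 15.4 CPM in low and 245.5 ± 34.4 CPM in sham libraries. Penk, the opioid precursor of indirect pathway neurons, averaged 1275 ± 78.9 CPM in low and 1505 ± 237 CPM in sham libraries. Dopamine signalling genes had 4 of 11 tested members above 0 at a median of -0.08. Th and Slc6a3, the enzyme and the transporter of dopamine terminals, were in the table and were not tested because their counts were too low.

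Synaptic vesicle release genes leaned below sham, with 19 of 25 below 0 at a median of -0.16 and 2 of the 25 lower at an unadjusted p under 0.05, beside 2.19% of all genes. Snap25, a membrane fusion protein of nerve endings, had 786, 761, 731, 766 and 826.5 CPM in low 7, 22, 37, 51 and 53, against a lowest of 790.2, a median of 910.0 and a highest of 1163 CPM in sham libraries. All low libraries but low 53 lay below every sham library. Rab3a, a GTPase on synaptic vesicles, averaged 288 ± 21.9 CPM in low and 384 ± 95.9 CPM in sham libraries, with sham 48 and 49 highest at 534 and 480.0 CPM. The log2 fold change of Snap25 was -0.26 ± 0.12 with and -0.27 without sham 48 and 49, while that of Rab3a was -0.41 ± 0.17 with and -0.21 without them. Without sham 18 as well, Snap25 was at -0.18 and Rab3a at -0.11.

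Receptor and channel lists depended on sham 48 and 49. GABA-A receptor and GABA genes had 13 of 20 members below 0 at a median of -0.09, glutamate receptors 12 of 23 at -0.01, and voltage-gated sodium and potassium channels 16 of 28 at -0.05. Without sham 48 and 49, 15 of 20, 16 of 23 and 25 of 28 lay below 0, at medians of -0.21, -0.22 and -0.21. In the same setting synaptic vesicle genes had 21 of 25 below 0 at -0.21 and projection neuron markers 24 of 27 at -0.18. Sham 48 and 49 had the lowest list means of all 12 libraries for glutamate receptors, at 5.40 and 5.25 log2 CPM, against 5.66 to 5.97 in low and 5.88 to 6.01 in the other sham libraries. The part of the glial and vascular lists, which stood above sham in the same libraries, was not tested.

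Of the subunits with the smallest p, Gabra5, which forms extrasynaptic GABA-A receptors, averaged 21.4 ± 5.89 CPM in low and 34.3 ± 14.8 CPM in sham libraries. Sham 49 had 64.5 CPM of Gabra5, and its log2 fold change of -0.68 became -0.37 without sham 48 and 49. Gabrd, the delta subunit of extrasynaptic receptors, had 77.6, 82.6, 76.4, 73.3 and 73.2 CPM in low 7, 22, 37, 51 and 53, against 81.7, 102 and 181 CPM as the lowest, median and highest sham library. The highest was sham 48, and only low 22 reached into the sham range. Without sham 48 the log2 fold change of Gabrd was -0.29, against -0.47 ± 0.22 with it.

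Housekeeping complexes leaned one way at small medians, and sham 48 and 49 were the highest libraries in each of them. All 76 tested ribosomal protein genes lay below 0 at a median of -0.23, all 73 nuclear-encoded respiratory chain genes at -0.30, and all 30 proteasome genes at -0.23. None of the ribosomal or respiratory chain genes and 1 of the proteasome genes stood lower at an unadjusted p under 0.05, beside 2.19% of all genes. The ribosomal list mean was 7.87, 8.14, 8.30, 7.99 and 7.97 log2 CPM in low 7, 22, 37, 51 and 53, and 7.88 to 7.99 in the sham libraries other than sham 48 at 8.68 and sham 49 at 9.15. Outside those 2 libraries the low group was level with sham or above it. Without sham 48 and 49, 75 of 76 ribosomal genes lay above 0 at a median of 0.15, 54 of 73 respiratory chain genes lay below 0 at -0.04, and 29 of 30 proteasome genes lay below 0 at -0.07.

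Within these complexes Atp5f1a, a subunit of the mitochondrial ATP synthase, averaged 700 ± 53.9 CPM in low and 852.5 ± 108 CPM in sham libraries. The log2 fold change of Atp5f1a was -0.28 with and -0.18 without sham 48 and 49. Psma3, a proteasome core subunit, and Asns, the asparagine synthetase induced by amino acid shortage, were the only members of any list whose groups did not overlap, beside 0.261% of all genes higher and 0.27% lower without overlap. Psma3 had 18.64, 18.45, 19.38, 19.36 and 16.15 CPM in the low libraries, against 19.42, 20.94 and 25.03 CPM as the lowest, median and highest sham library. Asns had 36.97, 34.1, 36.8, 34.2 and 35.9 CPM in the low libraries, against 38.7, 41.5 and 50.7 CPM in the same order for sham. Both pairs of groups were separated by little, at log2 fold changes of -0.23 ± 0.11 and -0.30 ± 0.12.

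Markers of tissue around the striatum lay below sham, with single sham libraries far above the rest. Septum, pallidum and thalamus markers had 12 of 13 members below 0 at a median of -0.65, and their summed level was 146 to 240.4 CPM in low and 158 to 967.5 CPM in sham libraries, highest in sham 48. Slc17a6, the vesicular glutamate transporter of thalamus, had 3.41, 2.78, 1.79, 1.67 and 2.37 CPM in low 7, 22, 37, 51 and 53, against a sham median of 4.82 CPM, 25.6 CPM in sham 34 and 168 CPM in sham 48. Calb2, calretinin, reached 85.6 CPM in sham 48, against a sham median of 6.18 CPM and 4.67 to 10.2 CPM in low libraries. No listed marker of this tissue was at 0 in all 12 libraries.

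Cortical excitatory neuron markers had 10 of 12 members below 0 at a median of -0.58, with summed levels of 1590 to 2536 CPM in low and 1640 to 3176 CPM in sham libraries, highest in sham 49. Slc17a7, the vesicular glutamate transporter of cortex, had 50.1, 101.5, 9.33, 6.51 and 40.2 CPM in low 7, 22, 37, 51 and 53, against a sham range of 11.8 to 427 CPM topped by sham 49. Choroid plexus markers had 7 of 8 below 0 at -0.39. Ttr, the thyroxine carrier made by choroid plexus, had 969 CPM in sham 48, against 1.93 to 37.5 CPM in the other sham libraries and 16.2 to 92.1 CPM in low libraries, highest in low 51. Its log2 fold change of -2.05 ± 1.08 became 1.17 without sham 48. Without sham 48 and 49 the medians were -0.09 for septum, pallidum and thalamus, -0.16 for cortex and 0.10 for choroid plexus. Blood genes, 4 of 4 above 0 at a median of 0.73, were highest in low 22 and sham 48, at list means of 5.33 and 4.93 log2 CPM.

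The known or proposed targets of polychlorinated biphenyls showed small differences. Ryanodine receptor and calcium store genes had 10 of 22 tested members above 0 at a median of -0.04, and their list mean was 6.33 to 6.38 log2 CPM in low and 6.24 to 6.49 in sham libraries. Ryr2, the main ryanodine receptor of brain, had 128, 114.5, 134, 116 and 219.7 CPM in low 7, 22, 37, 51 and 53, against 43.4, 147 and 198 CPM as the lowest, median and highest sham library. Low 53 alone was above the sham range, and without it the log2 fold change turned to -0.04, against 0.17 ± 0.45 with it. Ryr1 and Ryr3 are not analysed here.

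Thyroid hormone genes had 12 of 18 members above 0 at a median of 0.09. Slco1c1, a thyroxine transporter of the blood-brain barrier, averaged 172 ± 24.5 CPM in low and 142 ± 26.9 CPM in sham libraries, and Dio2, the enzyme that activates thyroid hormone in astrocytes, averaged 57 ± 15.3 CPM in low and 45.2 ± 15.9 CPM in sham libraries. Both are carried by astrocytes or vessels, whose marker lists stood above sham by medians of 0.35 and 0.28, and the part of those cells was not tested. The hormone-responsive genes Hr and Klf9 averaged 63.5 ± 7.56 and 159 ± 44.7 CPM in low and 51.7 ± 13.1 and 140 ± 23.3 CPM in sham libraries. Their unadjusted edgeR p-values were 0.214 and 0.455.

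Xenobiotic response genes had 8 of 14 members above 0 at a median of 0.16. Ahr, the aryl hydrocarbon receptor, averaged 6.93 ± 1.52 CPM in low and 8.10 ± 2.21 CPM in sham libraries. Cyp1b1, one of its target genes, had at most 0.852 CPM in any low library and 0.670 CPM in any sham library and was not tested, and Cyp1a1 is not analysed here. NRF2 and antioxidant genes had 7 of 22 above 0 at a median of -0.07, and 17 of 22 at 0.11 without sham 48 and 49. Chaperones and endoplasmic reticulum stress genes had 18 of 23 below 0 at -0.13, and sterol synthesis genes 12 of 21 above 0 at 0.08. Circadian clock genes had 11 of 15 above 0 at 0.04. Their list mean in low minus that in sham was 0.08 log2 CPM, and -0.01 without sham 48 and 49.

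Activity and stress hormone genes gave small opposite leanings. Immediate early genes, which firing neurons switch on, had 20 of 25 below 0 at a median of -0.21, and their list means of 4.39 to 4.97 log2 CPM in low libraries lay within the sham range of 3.71 to 5.25. Nptx2, an activity-regulated synaptic protein, averaged 16.3 ± 5.33 CPM in low and 24.6 ± 8.16 CPM in sham libraries. Glucocorticoid response genes had 13 of 17 above 0 at 0.18, with the highest list means in low 53 at 5.33 and low 37 at 5.27 log2 CPM. Pdk4, a metabolic target of glucocorticoids, had 14.6 CPM in low 53 and 3.34 to 6.499 CPM in the other low libraries, against 1.72 to 6.26 CPM in sham libraries. Immature neuron and cell cycle genes had 15 of 18 above 0 at 0.25, with 1 higher and 1 lower at an unadjusted p under 0.05, beside 2.56% and 2.19% of all genes. The higher one was the replication helicase gene Mcm2, at 10.96 ± 2.90 CPM in low and 7.56 ± 1.31 CPM in sham libraries. The lower one was Tubb3, a neuronal tubulin named after its values were seen, at 269 ± 12.3 CPM in low and 374 ± 119 CPM in sham libraries. The list mean was 4.49 and 4.16 log2 CPM in low 7 and 51, and 3.31, 2.85 and 3.24 in low 22, 37 and 53, below the sham median of 3.36. Striatal interneuron markers had 11 of 17 below 0 at -0.07, with 3 lower and 0 higher at an unadjusted p under 0.05, beside 2.19% and 2.56% of all genes. Among the 3 was Calb2, whose log2 fold change of -1.55 became -0.35 without sham 48.

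**Figure D4:**
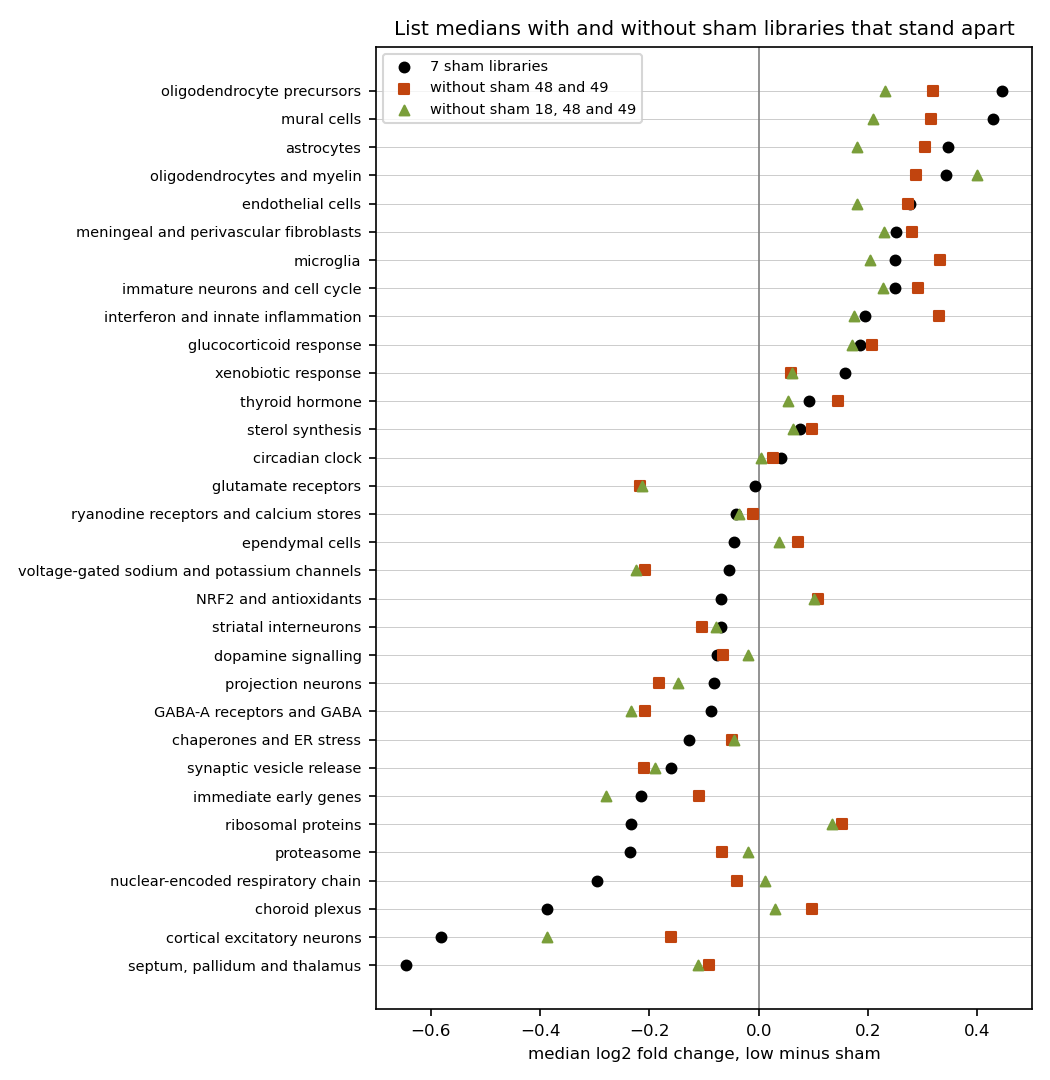
Median log2 fold change, low over sham (horizontal axis), of 32 gene lists with all 7 sham libraries (circles), without sham 48 and 49 (squares) and without sham 18, 48 and 49 (triangles). Glial and vascular lists stay to the right of 0 in all 3 settings. Ribosomal proteins, choroid plexus and the NRF2 and antioxidant list are among those that cross from left to right of 0 when sham 48 and 49 are left out.

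Across the loading series, in which every exposed group shares the sham libraries, the low group was not intermediate between sham and high in the glial lists. The oligodendrocyte list mean was 8.04 ± 0.41 log2 CPM in sham, 8.42 ± 0.06 in low, 8.04 ± 0.28 in medium and 7.97 ± 0.24 in high libraries. Precursors were at 5.72 ± 0.31, 6.19 ± 0.11, 5.76 ± 0.42 and 5.77 ± 0.41 in sham, low, medium and high. For astrocytes the means were 8.38 ± 0.27, 8.73 ± 0.14, 8.54 ± 0.25 and 8.53 ± 0.28 in sham, low, medium and high. The ranges of mean ± SD of medium and high overlapped that of sham in all 3 lists, and that of low overlapped sham for oligodendrocytes and astrocytes. The differences between loadings were not tested.

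**Figure D5:**
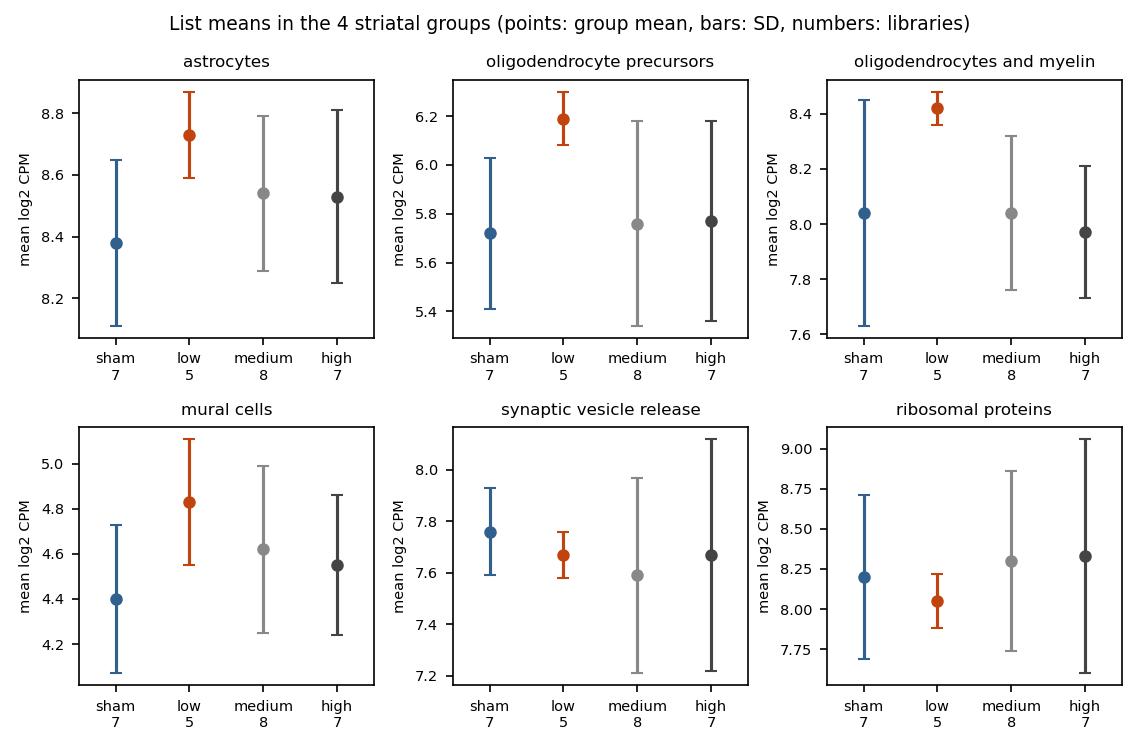
Mean log2 CPM of 6 gene lists (vertical axes, which do not start at 0) in the sham, low, medium and high striatal groups, as group means with SD bars and the number of libraries under each group. In the oligodendrocyte and precursor panels the low group is the highest with the shortest bar, at 8.42 ± 0.06 and 6.19 ± 0.11.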

How the data were processed

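Gene-level read counts deposited by the authors as whole numbers, 1 table per brain region, were used as counts. HISAT2, FastQC and the build rn6 are named, without versions, in the submitters' processing notes. How reads were assigned to genes, and whether strand was used, is not given in the sources used here, so overlapping or near-identical genes may share reads. Per the labels' protocols, RNA was extracted from punches with TRIzol and RNeasy columns, and either poly(A) selection or ribosomal RNA depletion was used, which could shift levels between libraries if both were.

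Symbols were assigned to 14163 of 14231 genes from a RefSeq table of GRCr8, and the 26 listed transcripts of the mitochondrial genome are not analysed here. Counts were scaled with TMM and filtered with filterByExpr. One robust quasi-likelihood model in edgeR 4.0.16 (R 4.3.3) was fitted to the 27 striatal libraries at or above the Ppp1r1b threshold in 4 groups, with two-sided p-values adjusted by Benjamini-Hochberg over 12243 genes. Levels are CPM with TMM factors, and list means use log2 CPM at prior count 2. A list is described by its counts and median, with no test. Named genes were the 8 per direction with the smallest p, the 5 per direction with the largest fold among non-overlapping genes with a mean of 10 CPM or more, up to 3 members per list by p, and a fixed set of markers and exposure targets. The members, the 34 lists and the rules were chosen with earlier results of these data known. Alternatives were DESeq2 1.42.0, limma 3.58.1, other scalings and filters, other Ppp1r1b thresholds, covariates, a block for runs of 15 animal numbers, and leaving out libraries. The procedure was also run on simulated counts with planted changes. Genes were drawn independently there, without shifts shared by many genes, so that run does not measure the power in these libraries.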

Additional observations from a re-analysis of the deposited data

Results flagged for a closer look

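Among 190 groups of values examined, 16 had 1 library far from the rest of its group by Dixon's criterion, and chance flags about 1 in 20 groups. Sham 48 accounted for 7 of them. Against its own group it was far above the other sham libraries in the choroid plexus list mean (3.72 log2 CPM) and in Ntng1 (92.0 CPM), Prkcd (327 CPM), Slc17a6 (168 CPM), Calb2 (85.6 CPM), Ttr (969 CPM) and Gabrd (181 CPM). Sham 49 was far above the others in Slc17a7 (427 CPM) and Gabra5 (64.5 CPM). Sham 18 was far below them in the astrocyte list mean (7.83 log2 CPM).

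In the low group, low 51 was far above the others in Ttr (92.1 CPM). Low 53 was far above in Pdk4 (14.6 CPM) and in Ryr2 (219.7 CPM) and far below in Psma3 (16.2 CPM). Low 37 was far above in Rpl17, a ribosomal protein gene (242.9 CPM), and far below in the sterol synthesis list mean (6.02 log2 CPM).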

How the results depend on the processing

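No paired analysis was possible because low and sham libraries came from different rats and share no animal number. The 7 sham and 5 low libraries, of which sham 48 and 49 stand apart, limit the precision. The labels do not tie rats to cohorts. With runs of 15 animal numbers as a block, 0 genes passed the adjusted threshold, as in every setting but DESeq2, which called 1. None of the log2 fold changes of Lrfn5, Rhbdf1, Elf2 and Gjb2 changed sign in the 25 alternatives, with ranges of -0.51 to -0.24, 0.47 to 0.58, 0.33 to 0.44 and 0.42 to 0.81.

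At an unadjusted p under 0.05, the 313 genes higher in low became 973 in limma-voom, 540 with the 12 libraries alone, 783 with the ribosomal list as a covariate, 148 without sham 18, 48 and 49, and 189 to 519 when 1 library was left out (lowest without low 37, 195 without low 51, highest without sham 34). The 268 lower genes became 403 in DESeq2, 682 in limma-voom, 475 with the 12 libraries alone, 175 with no Ppp1r1b threshold, 649 with the ribosomal covariate, 130 without sham 48 and 49, 64 without sham 18, 48 and 49, and 152 to 386 when 1 library was left out (lowest without sham 48, 158 without low 51). Non-overlapping genes, 32 higher and 33 lower, became 6 and 5 with no Ppp1r1b threshold, 94 and 93 without sham 48 and 49, 136 and 154 without sham 18, 48 and 49, and 39 to 176 and 39 to 106 when 1 library was left out (both highest without sham 34). Fewer libraries make overlap less likely by construction. The other causes were not tested.

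With no Ppp1r1b threshold, log2 fold changes turned sign for Ntng1 (1.23), Prkcd (0.55), Slc17a6 (1.29), Calb2 (0.032) and Ryr2 (-0.10). In limma-voom they did so for Calb2 (0.0056), Ttr (1.39) and Ryr2 (-0.10), and in DESeq2 for Ttr (1.12). Without sham 48 and 49 they did so for Ttr (0.94), Rpl17 (0.0051) and Ryr2 (-0.16), and without sham 18, 48 and 49 for Ttr (1.32), Rpl17 (0.14) and Ryr2 (-0.17). When 1 library was left out, Ttr ranged from -2.72 to 1.17, turning sign without sham 48, and Ryr2 from -0.037 to 0.31, turning sign without low 53.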
